A study of Rattus norvegicus with 54 samples.

Results

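Right ventricle RNA of 2 rat litters raised at simulated altitude was compared, litter 4HH against litter 3HH. Both litters were outbred Sprague Dawley rats exposed in utero and after birth to a hypobaric chamber simulating 9000 feet (15% inspired oxygen) and studied at 6 weeks of age. Litter 4HH entered with 5 libraries (2 males and 3 females) and litter 3HH with 8 libraries (4 males and 4 females), 1 library per animal. The ventricle library of animal 4HH37 was left out by the rule; it held 5790 CPM (counts scaled to library size) of Sftpc, a surfactant gene of lung epithelium, against at most 54.1 CPM in the other 13. These 13 libraries are part of 54 in the series, which also holds lung of the same animals and both tissues of room air litters 4RARA and 6RARA, with 7 and 4 right ventricle libraries. The labels give both altitude litters the same strain, exposure and age, so the comparison asks how far litters under one exposure differ. Each side is a single litter, and p values therefore measure the spread between littermates, not between litters.

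The major histocompatibility complex of the rat, called RT1, encodes 2 kinds of cell surface molecule. Class I molecules sit on nearly all nucleated cells and show peptides from inside the cell to cytotoxic T cells, and natural killer (NK) cells also read them. Class II molecules sit mainly on macrophages, dendritic cells and B cells and show engulfed peptides to helper T cells. Interferon gamma from lymphocytes raises transcription of both classes. In healthy heart the class II signal of bulk RNA comes largely from resident macrophages and other antigen-presenting cells.

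Promoters of the 4 RT1 genes that passed the litter test are shown, because they include genes of both classes, which differ in their promoter elements. Each sequence is the 250 bases before the gene's start on its own strand, from RefSeq on build GRCr8, at chr20:4576807-4577056 (plus strand) for RT1-Ba, chr20:4515165-4515414 (plus) for RT1-Da, chr20:4872621-4872870 (plus) for RT1-A2 and chr20:3546518-3546767 (minus) for RT1-CE2. Capitals mark matches, on either strand, to 4 motifs chosen with these sequences known.
RT1-Ba: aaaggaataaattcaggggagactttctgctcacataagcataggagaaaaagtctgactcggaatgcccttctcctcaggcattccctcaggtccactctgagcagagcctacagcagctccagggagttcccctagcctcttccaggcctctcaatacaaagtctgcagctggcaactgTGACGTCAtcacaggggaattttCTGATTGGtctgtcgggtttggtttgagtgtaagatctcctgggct
RT1-Da: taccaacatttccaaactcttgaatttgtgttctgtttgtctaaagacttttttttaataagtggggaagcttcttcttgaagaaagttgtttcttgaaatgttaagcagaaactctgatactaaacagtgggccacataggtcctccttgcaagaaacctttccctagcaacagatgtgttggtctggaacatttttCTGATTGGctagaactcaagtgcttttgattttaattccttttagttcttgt
RT1-A2: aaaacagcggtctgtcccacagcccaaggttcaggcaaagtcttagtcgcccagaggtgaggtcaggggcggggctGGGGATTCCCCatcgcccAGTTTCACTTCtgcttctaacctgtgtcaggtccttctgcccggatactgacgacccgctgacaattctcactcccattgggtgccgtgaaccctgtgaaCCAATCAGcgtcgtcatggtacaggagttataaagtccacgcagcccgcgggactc
RT1-CE2: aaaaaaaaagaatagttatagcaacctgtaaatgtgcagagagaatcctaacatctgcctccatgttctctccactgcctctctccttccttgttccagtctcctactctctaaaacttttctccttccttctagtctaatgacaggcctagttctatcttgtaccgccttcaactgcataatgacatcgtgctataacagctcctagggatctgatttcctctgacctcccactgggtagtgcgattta
The motif CTGATTGG, the Y box of class II promoters, begins 46 bases before the start in RT1-Ba and 52 bases before it in RT1-Da. On the other strand it also lies in RT1-A2, from 56 bases before the start. It was found in 5 of 6 class II genes and 7 of 18 class I genes with a promoter entry, and in 3.19% of all 33469 promoters of the same length. The motif TGACGTCA, a cyclic AMP response element core, occurs in RT1-Ba alone among RT1 genes tested and in 1.59% of all promoters. The class I enhancer A motif, a binding sequence of NF-kB, occurs in RT1-A2 and 6 other class I genes, in no class II gene, and in 0.0598% of all promoters. The interferon-stimulated response element occurs in RT1-A2 and 8 other class I genes, in no class II gene, and in 156 of the 33469 promoters. None of the 4 motifs lies in the RT1-CE2 window. A match is a description of letters and shows no binding.

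Total counts ranged from 9544462 to 13322285 in 4HH libraries and from 10260904 to 13829653 in 3HH libraries, and RNA integrity numbers (RIN) from 7.7 to 8.4 in 4HH and from 5.9 to 8.4 in 3HH (two-sided exact permutation p = 0.421). Of the library measures tested, raw reads had the lowest p. Their mean was 29680600 in 4HH and 32707400 in 3HH (two-sided exact permutation p = 0.0482, and 0.326 when adjusted over the measures). Ventricular myosin light chain Myl2 was at 6648 CPM (scaled by TMM) or more in every library, and Y-linked genes matched the labelled sex in all 13. Libraries 3HH20, 3HH27, 3HH30 and 4HH38 had the lowest median rank correlations with the others (0.953 to 0.972). Libraries of one litter were no closer than libraries of different litters, with median Spearman correlations of 0.978 and 0.977. The 4 ventricle libraries of room air litter 6RARA stood apart, with RIN of 5.8 to 7.4 and cardiac actin, Actc1, at 846 to 1386 CPM, against 9226 to 12499 CPM in 4RARA, so their levels are given for description only. Library batches 1, 2 and 3 held 1, 2 and 2 libraries of 4HH and 2, 4 and 2 libraries of 3HH, so every batch held both litters. The deposited run sheet carries a note on 3HH28 that its ventricle and lung entries were swapped and the RIN not correct; the labels were followed here.

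Between the litters 13 of 11320 genes tested passed edgeR's quasi-likelihood test at an adjusted p (Benjamini-Hochberg) under 0.05, which is 0.115%. Of these, 9 were higher in 4HH (0.0795% of genes tested) and 4 were lower (0.0353%). The 9 higher genes are RT1-A2, RT1-CE2, RT1-Ba and RT1-Da of the MHC, the chemokine Cxcl9, the cytotoxic granule gene Nkg7, the phospholipase Pla2g2a, the lipid kinase Pik3c2g and the co-chaperone Dnajb5. The 4 lower genes are Rims1, Fras1, Plxnb3 and Vnn1. In 10 of the 13 the litters did not overlap, against 128 of all genes tested (1.13%), and all 13 had one direction in every batch. The 13 were picked for their litter difference in these same libraries, so neither count is separate support. The call rests on few animals. Without 4HH38 or without 3HH25 edgeR called 0 genes (1 of each litter, with all 13 genes still at an unadjusted p of 0.000438 or less in every fit with a library left out). Without 4HH33 it called 102 genes, without 4HH36 1, without 4HH39 or 4HH40 2 each, without 3HH21 4 and without 3HH28 5. DESeq2 called 242 genes, 99 higher and 143 lower, the 13 among them, and edgeR with no scaling beyond the total count called 6, 2 higher and 4 lower. An unadjusted p under 0.05 was reached by 1457 genes (12.9%), 646 higher (5.71%) and 811 lower (7.16%).

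**Figure D1:**
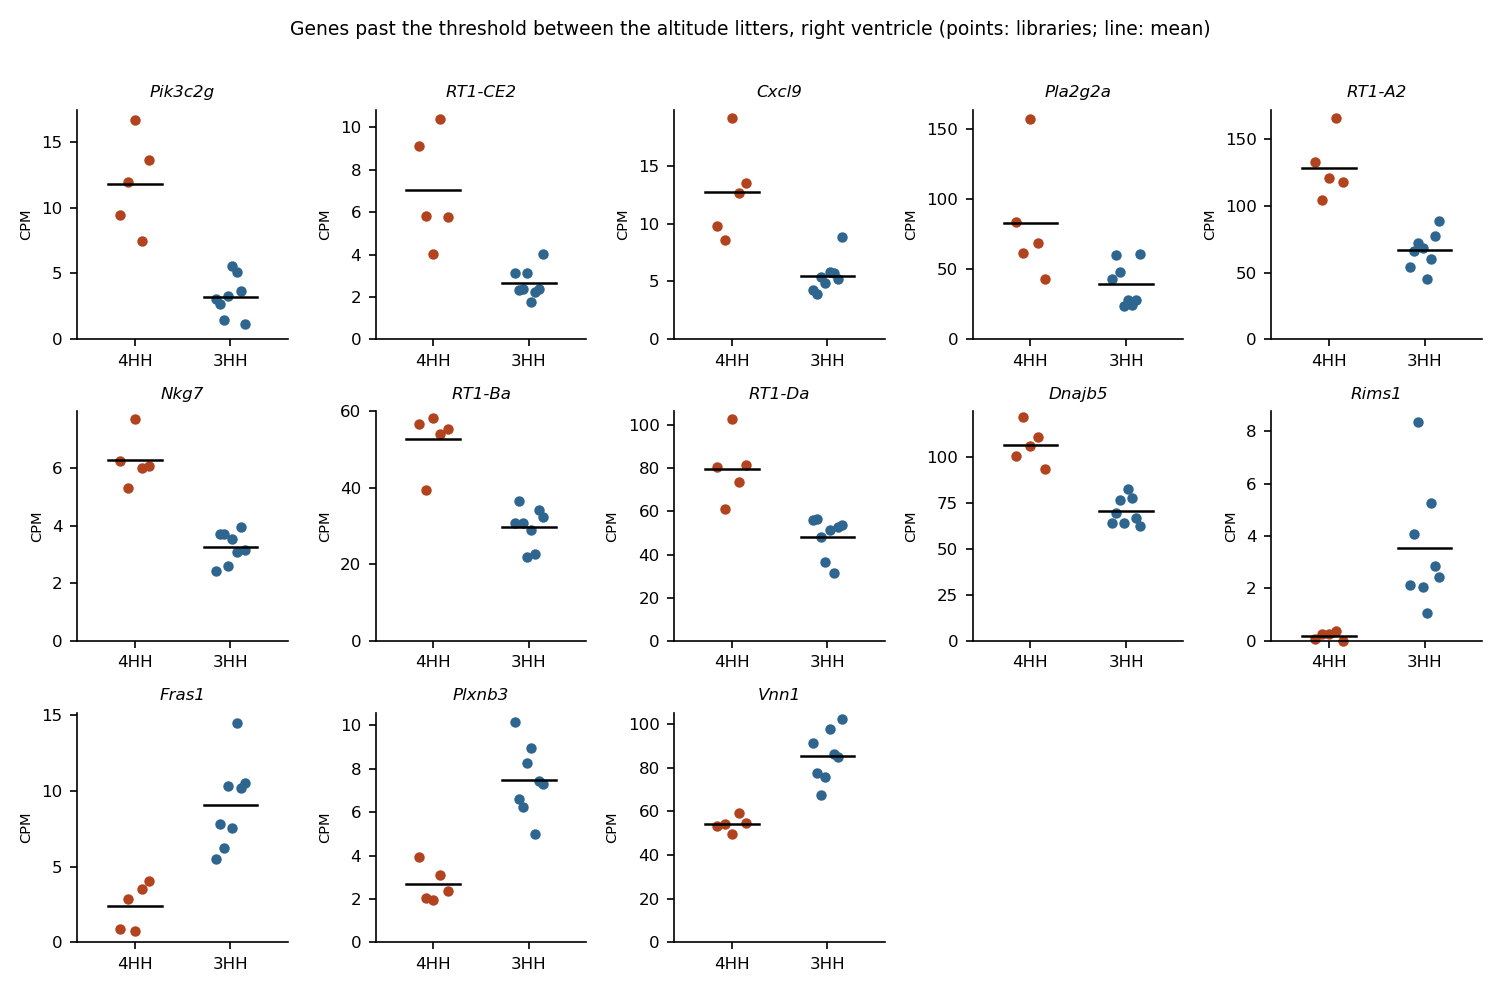
Level of the 13 genes past the threshold, in CPM (vertical axis from 0) for each of the 5 libraries of 4HH (left) and 8 of 3HH (right); points are libraries and lines are means. The litters overlap only in RT1-CE2, Cxcl9 and Pla2g2a; the 3HH points of Rims1 spread from 1.04 to 8.34 CPM while no 4HH point exceeds 0.380 CPM.

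The class II genes RT1-Ba and RT1-Da, the alpha chains of the B and D molecules, were higher in 4HH. RT1-Ba (chromosome 20, 4066133 to 4070726 on build rn6) had 56.7, 39.5, 58.2, 54.2 and 55.5 CPM in 4HH animals 33, 36, 38, 39 and 40, against a lowest value of 21.9, a median of 30.9 and a highest of 36.4 CPM in 3HH. No 4HH library fell into the 3HH range, and animal 4HH36 was the lowest of its litter. The log2 fold change, 4HH over 3HH, was 0.85 ± 0.12 (SE; edgeR adjusted p = 0.0229), with log2 differences of 0.83, 0.87 and 0.88 in batches 1, 2 and 3. RT1-Da (chromosome 20, 4127644 to 4132616) had 80.5, 61.1, 103, 73.8 and 81.3 CPM in 4HH, in the same order of animals, and a range of 31.5 to 56.6 CPM with a median of 52.1 in 3HH. The litters again did not overlap (log2 fold change 0.76 ± 0.13 SE, edgeR adjusted p = 0.0381). The beta chains missed the threshold. RT1-Db1 averaged 46.04 ± 6.67 CPM in 4HH and 29.6 ± 4.96 CPM in 3HH (SD, n = 5 and 8; edgeR adjusted p = 0.0611), and RT1-Bb 14.9 ± 3.17 and 8.999 ± 2.10 CPM (edgeR adjusted p = 0.0917). Over the 6 class II genes tested, 5 had a positive log2 fold change, and the median was 0.711. In room air ventricles RT1-Bb ranged from 0 to 19.0 CPM in 4RARA (median 15.0) and from 0.311 to 30.1 CPM in 6RARA (median 18.6). Whether sequence differences between outbred animals affect the counts of class II genes was not tested.

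Of class I genes RT1-A2 and RT1-CE2 were higher in 4HH. RT1-A2, a classical class I heavy chain (chromosome 20, 5375011 to 5378536), had 133, 105, 121, 166 and 118 CPM in 4HH, against 45.1 to 88.6 CPM with a median of 67.6 in 3HH. Every 4HH library was above every 3HH library (log2 fold change 0.96 ± 0.15 SE, edgeR adjusted p = 0.0299). RT1-CE2 (chromosome 20, 4771960 to 4774886) had 9.12, 5.84, 4.04, 10.4 and 5.77 CPM in 4HH, against 1.77 to 4.04 CPM with a median of 2.37 in 3HH. Its litters met at 4HH38 and 3HH30, both at 4.04 CPM (log2 fold change 1.42 ± 0.24 SE, edgeR adjusted p = 0.0359). RT1-CE13, on an unplaced piece of chromosome 20, gave 1.08 ± 0.29 (SE; edgeR adjusted p = 0.142), with 18.4 CPM in 4HH38 and 5.75 to 7.82 CPM in the other 4HH libraries. RT1-CE5, at 80.0 ± 14.1 CPM in 4HH and 56.7 ± 13.5 CPM in 3HH (SD, n = 5 and 8), gave 0.51 ± 0.16 (SE; edgeR adjusted p = 0.202). Over the 19 class I genes tested 14 were positive, with a median of 0.295. Class I loci are near-identical copies and some of their table spans overlap, RT1-CE2 lying inside that of RT1-CE1, so the split of reads between copies is uncertain.

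Taking both classes together, 4 of 25 RT1 genes passed, all higher (0.0795% of all genes tested), and 13 were at an unadjusted p under 0.05, all higher (5.71% of all genes). The median log2 fold change was 0.347, and 19 of 25 were positive, beside a median of 0.0154 and 52.8% positive over all genes. The RT1 call count came to 0 without 4HH38, 4HH39, 4HH40 or 3HH25, to 1 without 4HH36, 3HH21, 3HH23 or 3HH28 and to 2 without 3HH20, and it was 7 in DESeq2. Genes that lie between the RT1 loci were counted too. Of 88 tested on chromosome 20 between 154657 and 5418012, 0 passed in edgeR, beside 0.115% of all genes, and their median was −0.0729. An unadjusted p under 0.05 was reached by 25 of the 88, 10 of them higher. Over all genes the share at that level was 12.9%, with 5.71% higher and 7.16% lower, so the region held more such genes than the whole. Summed macrophage and monocyte markers ranged from 818 to 1429 CPM in 4HH and from 444 to 874 CPM in 3HH, with 19 of 19 positive, and their part in the RT1 result was not tested. In bulk RNA, more cells of a type and more RNA per cell cannot be told apart.

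**Figure D2:**
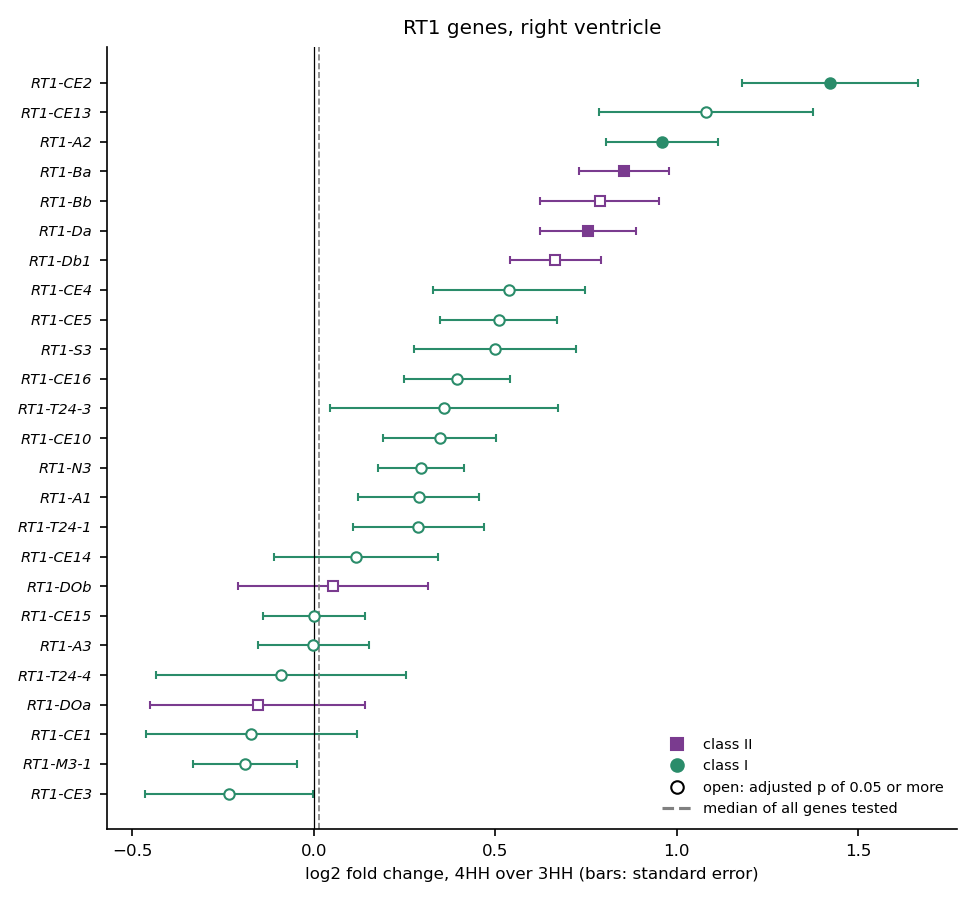
Log2 fold change, 4HH over 3HH (horizontal axis), of the 25 RT1 genes tested, ordered by size; bars are standard errors, squares class II, circles class I, filled marks past the threshold. RT1-CE2 is at the top with 1.42, 4 genes are filled, and 19 of 25 lie above 0, while the dashed line marks the median of all genes at 0.0154.

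Interferon response genes were represented among the calls by Cxcl9, a chemokine that interferon gamma induces and that draws activated T and NK cells. Cxcl9 (chromosome 14, 17228832 to 17233743) had 9.84, 8.58, 19.1, 12.7 and 13.5 CPM in 4HH, against 3.94 to 8.82 CPM with a median of 5.31 in 3HH. A single 3HH library, 3HH30, exceeded the lowest 4HH library (log2 fold change 1.21 ± 0.21 SE, edgeR adjusted p = 0.0381). Of 30 interferon response genes tested it was the 1 that passed (0.0795% of all genes were called higher). All 30 had a positive log2 fold change, beside 52.8% of all genes, with a median of 0.469, and 14 were higher at an unadjusted p under 0.05, beside 5.71% of all genes. The next lowest p values, named after their values were seen, belonged to Gbp2, a guanylate-binding GTPase, with 61.6 ± 16.6 CPM in 4HH and 37.4 ± 11.1 CPM in 3HH, and Psmb8, an immunoproteasome subunit, with 17.0 ± 5.22 and 10.4 ± 2.90 CPM (SD, n = 5 and 8; edgeR adjusted p = 0.157 for both). The summed list ranged from 1061 to 1812 CPM in 4HH and from 745 to 1611 CPM in 3HH.

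The cytotoxic gene Nkg7 was higher in 4HH. Nkg7, a granule membrane protein of NK and cytotoxic T cells (chromosome 1, 98492873 to 98493940), had 6.25, 5.31, 7.72, 6.00 and 6.09 CPM in 4HH, against 2.44 to 3.97 CPM with a median of 3.35 in 3HH. The litters did not overlap (log2 fold change 0.93 ± 0.16 SE, edgeR adjusted p = 0.0350). It was the 1 of 20 T and NK cell genes that passed (0.0795% of all genes were called higher). With 12 of 20 positive (60%, median 0.164) the list was near the 52.8% of all genes. At an unadjusted p under 0.05, 8 were higher and 2 lower, beside 5.71% and 7.16% of all genes. Other genes of the list were named after their values were seen. The granzymes Gzmb, Gzmk and Gzma, proteases of the granules, averaged 2.32 ± 1.13, 2.84 ± 1.16 and 1.56 ± 0.825 CPM in 4HH and 0.914 ± 0.238, 0.928 ± 0.673 and 0.574 ± 0.279 CPM in 3HH (SD, n = 5 and 8), with edgeR adjusted p values of 0.0777, 0.0809 and 0.121. Perforin, Prf1, which opens pores in target cells, averaged 6.88 ± 1.39 CPM in 4HH and 3.52 ± 0.959 CPM in 3HH (SD, n = 5 and 8; edgeR adjusted p = 0.0917). Ccl5, a chemokine of the same cells, averaged 10.7 ± 2.21 and 6.83 ± 1.97 CPM (edgeR adjusted p = 0.174). The CD3 chains of the T cell receptor complex had negative log2 fold changes, none past the threshold: −1.28 ± 0.49 for Cd3g, −1.19 ± 0.52 for Cd3d and −0.36 ± 0.43 for Cd3e (SE; edgeR adjusted p = 0.286, 0.348 and 0.756). All of these genes were under 13 CPM, so single libraries weigh heavily, and 4HH38 held the highest Gzmb with 4.29 CPM.

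Outside immune lists, 3 genes were higher in 4HH. Pik3c2g, a class II phosphoinositide 3-kinase that phosphorylates membrane lipids (chromosome 4, 173732248 to 174102499), had 9.41, 11.9, 16.7, 7.45 and 13.6 CPM in 4HH, against 1.13 to 5.53 CPM with a median of 3.16 in 3HH. All 4HH libraries were above all 3HH libraries, with a log2 fold change of 1.90 ± 0.29 (SE; edgeR adjusted p = 0.0231). Room air litter 4RARA, at 4.40 to 8.24 CPM, reached into both ranges, and 6RARA lay at 1.07 to 3.00 CPM. Pla2g2a, a secreted phospholipase A2 of inflammation and host defence (chromosome 5, 157282718 to 157285294), had 83.5, 61.7, 157, 69.0 and 43 CPM in 4HH, against 23.8 to 61.1 CPM with a median of 35.5 in 3HH. The litters overlapped at 4HH40, and 4HH38 was the highest (log2 fold change 1.16 ± 0.16 SE, edgeR adjusted p = 0.0182). Dnajb5, a co-chaperone of the heat shock protein 40 family (chromosome 5, 58393233 to 58401879), had 100, 122, 106, 111 and 93.7 CPM in 4HH, against 62.7 to 82.4 CPM with a median of 68.2 in 3HH. Its difference was the smallest in size of the 13 and had no overlap (log2 fold change 0.59 ± 0.10 SE, edgeR adjusted p = 0.0350), and none of 29 heat shock and chaperone genes on the list passed (median 0.121).

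Lower in 4HH were Rims1, Fras1, Plxnb3 and Vnn1, which share no list, and the litters overlapped in none of them. Rims1, a scaffold of neurotransmitter release sites (chromosome 9, 28442234 to 29003442), had 0.0718, 0.265, 0.245, 0.380 and 0 CPM in 4HH, against 1.04 to 8.34 CPM with a median of 2.65 in 3HH. In raw counts these were 11 reads over 5 libraries of 4HH and 377 over 8 of 3HH, and the highest 3HH animal was 3HH23. The log2 fold change was −4.10 ± 0.64 (SE; edgeR adjusted p = 0.0231). Room air litter 4RARA lay at 0 to 0.436 CPM and 6RARA at 0 to 0.783 CPM. Fras1, an extracellular protein of basement membranes (chromosome 14, 14438392 to 14853016), had 0.862, 2.83, 0.735, 3.49 and 4.03 CPM in 4HH, against 5.49 to 14.4 CPM with a median of 8.98 in 3HH (log2 fold change −2.11 ± 0.29 SE, edgeR adjusted p = 0.0182). Fras1 was far higher in lung, at a median of 57.3 CPM in 4HH and 80.9 CPM in 3HH, and the ventricle library of 4HH37, left out here, held 34.8 CPM. With that library kept the log2 fold change was −0.34 (edgeR adjusted p = 0.846).

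Plxnb3, a receptor for semaphorins (chromosome X, 157015297 to 157028434), had 3.95, 2.03, 1.96, 3.11 and 2.37 CPM in 4HH, against 4.98 to 10.2 CPM with a median of 7.36 in 3HH. The log2 fold change was −1.44 ± 0.22 (SE; edgeR adjusted p = 0.0231), and room air litters 4RARA and 6RARA spanned 0.895 to 6.49 CPM and 4.18 to 5.61 CPM. Vnn1, a pantetheinase that releases cysteamine (chromosome 1, 22614833 to 22625134), had 53.1, 54.3, 49.7, 59.03 and 54.5 CPM in 4HH, against 67.6 to 102 CPM with a median of 85.5 in 3HH. Its 4HH values were close together, and room air litters 4RARA and 6RARA lay at 56.4 to 80.5 CPM and 37.7 to 60.7 CPM (log2 fold change −0.66 ± 0.11 SE, edgeR adjusted p = 0.0350). For the 4 called RT1 genes, the room air medians of 4RARA were 49 CPM for RT1-Ba, 85.9 CPM for RT1-Da, 110 CPM for RT1-A2 and 3.47 CPM for RT1-CE2. The 4HH means were 52.8, 79.9, 129 and 7.04 CPM in that order, and the 3HH means 29.8, 48.4, 66.7 and 2.67 CPM. The 4RARA median was thus nearer to the 4HH mean for RT1-Ba, RT1-Da and RT1-A2 and nearer to the 3HH mean for RT1-CE2. In 6RARA the medians were 60.6, 88.4, 244 and 13.5 CPM. No test was made between altitude and room air.

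Of 45 gene lists with a member tested, 42 had no member past the threshold, so the following values are descriptions. Over all genes 52.8% were positive, and at an unadjusted p under 0.05 5.71% were higher and 7.16% lower. Macrophage and monocyte genes were positive in 19 of 19, with a median of 0.433 and 8 higher at an unadjusted p under 0.05. Lyz2, lysozyme, averaged 365 ± 164 CPM in 4HH and 209 ± 47.6 CPM in 3HH (SD, n = 5 and 8; edgeR adjusted p = 0.121), with 645 CPM in 4HH38. The complement gene C1qc averaged 76.9 ± 12.2 and 55.96 ± 15.2 CPM (edgeR adjusted p = 0.121). Lyz2 was far higher in lung, at a median of 26980 CPM in 4HH and 19910 CPM in 3HH. The ventricle library of 4HH37, left out here, held 9231 CPM of it. The part of lung RNA in the ventricle values of Lyz2 was not tested. Of mast cell genes 0 of 10 were positive, with none past the threshold in edgeR and a median of −0.437. Only 1 of the 10 was lower at an unadjusted p under 0.05, beside 7.16% of all genes. Hdc, which makes histamine, averaged 1.04 ± 0.192 CPM in 4HH and 2.42 ± 1.02 CPM in 3HH (SD, n = 5 and 8; edgeR adjusted p = 0.143), and the protease Mcpt1l1 13.5 ± 2.27 and 18.4 ± 5.59 CPM (edgeR adjusted p = 0.404). Erythroid and platelet genes were positive in 8 of 8 (median 0.516). The red cell anion exchanger Slc4a1 averaged 60.4 ± 8.01 CPM in 4HH and 38.7 ± 11.2 CPM in 3HH (SD, n = 5 and 8; edgeR adjusted p = 0.177). Hemgn, of red cell precursors, gave 1.38 ± 0.42 on the log2 scale (SE; edgeR adjusted p = 0.182). Endothelial genes were positive in 20 of 25 (median 0.211), with Emcn at 0.38 ± 0.11 and Pecam1 at 0.35 ± 0.14 (SE; edgeR adjusted p = 0.174 and 0.299).

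**Figure D3:**
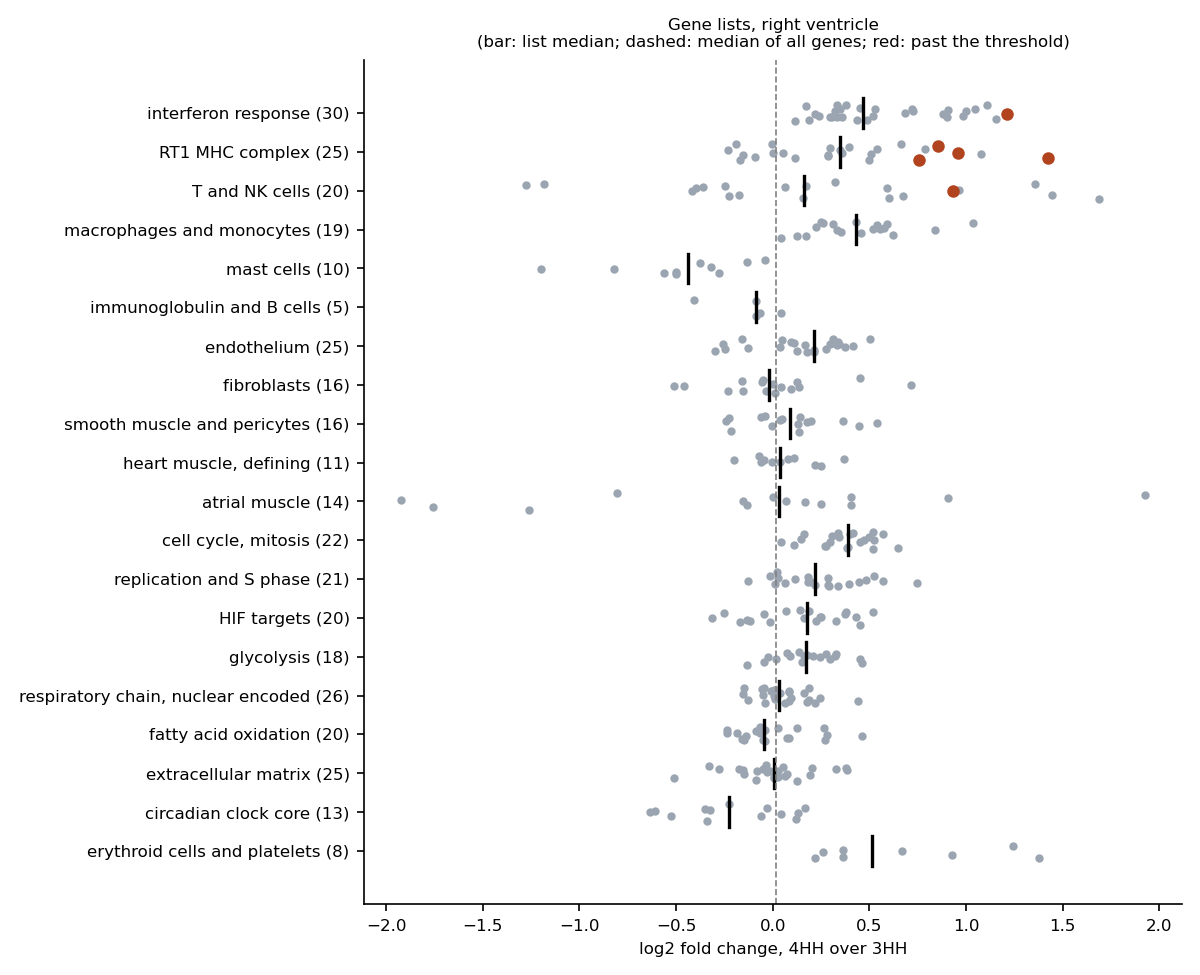
Log2 fold change, 4HH over 3HH (horizontal axis), of each tested member of 20 gene lists; points are genes, bars list medians, the dashed line the median of all genes, and red points are past the threshold, with the number of genes tested in parentheses. Red points occur in the interferon, RT1 and T and NK cell lists alone, mast cell genes all lie below 0, and interferon, macrophage and mitosis genes all lie above 0.

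Proliferation genes were positive in 22 of 22 for mitosis (median 0.388) and 19 of 21 for replication (median 0.217), with none past the threshold. Over all genes 52.8% were positive. Mcm6, a subunit of the replicative helicase, averaged 17.7 ± 2.21 CPM in 4HH and 12.1 ± 2.42 CPM in 3HH (SD, n = 5 and 8; edgeR adjusted p = 0.121), without overlap. Cyclin E2, Ccne2, gave 0.75 ± 0.22, the mitotic kinesin Kif20a 0.65 ± 0.22 and the mitotic activator Cdc20 0.47 ± 0.16 on the log2 scale (SE; edgeR adjusted p = 0.176, 0.232 and 0.222). Summed mitosis genes ranged from 142 to 391 CPM in 4HH and from 141 to 404 CPM in 3HH, with medians of 298 CPM in 4HH and 191 CPM in 3HH. The highest sum was that of 3HH20, one of the libraries that stood apart.

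Targets of the hypoxia-inducible factor HIF had 0 of 20 members past the threshold in edgeR and a median of 0.177. At an unadjusted p under 0.05 were 6 of the 20, all higher, beside 5.71% of all genes higher at that level. Egln3, an oxygen-sensing prolyl hydroxylase, had 273 to 415 CPM in 4HH and 174 to 259 CPM in 3HH, and Pdk1, which restrains pyruvate use by mitochondria, 292 to 360 and 172 to 273 CPM. Neither pair of ranges overlapped, yet neither gene passed (edgeR adjusted p = 0.121 and 0.143). Glycolysis genes had a median of 0.170, with Pkm at 0.46 ± 0.17 and Pfkl at 0.45 ± 0.17 (SE; edgeR adjusted p = 0.273 and 0.282), while fatty acid oxidation had −0.0443 and the respiratory chain 0.0309. Fasting-response genes had a median of −0.136, with the hormone Fgf21 at −1.17 ± 0.35 and the lipase inhibitor Angptl4 at −0.90 ± 0.36 (SE; edgeR adjusted p = 0.174 and 0.299). Both litters lived under one oxygen level.

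Cardiac muscle lists were close to the median of all genes. The 11 defining heart muscle genes had a median of 0.0397, led by Actc1, cardiac actin, at 0.37 ± 0.16, with Myh6, the alpha myosin heavy chain, at 0.25 ± 0.19 (SE; edgeR adjusted p = 0.329 and 0.607). Atrial genes were spread widely around a median of 0.0347. Myl7, the atrial myosin light chain, ranged from 3.23 to 8.94 CPM in 4HH and from 3.75 to 80.6 CPM in 3HH, whereas sarcolipin, Sln, ranged from 6.56 to 13.8 CPM in 4HH and from 0.0722 to 8.41 CPM in 3HH (edgeR adjusted p = 0.295 and 0.299). The Myl7 values above 40 CPM came from 3HH25 and 3HH30. The same libraries held the highest Sln values of 3HH, at 7.90 and 8.41 CPM, and the next highest was 1.02 CPM in 3HH20. The part of atrial tissue in these values was not tested. Potassium and sodium channel genes were positive in 7 of 18 (median −0.112), beside 52.8% of all genes. At an unadjusted p under 0.05 in edgeR were 6 of the 18, and only 1 of these, Kcna5, was higher. Over all genes 5.71% were higher and 7.16% lower at that level. The potassium channel Kcna5 gave 0.91 ± 0.30 and the sodium channel subunit Scn4b −0.77 ± 0.31 (SE; edgeR adjusted p = 0.216 and 0.299). Tnnt3, fast skeletal troponin T, had 6.25 to 11.2 CPM in 4HH and 11.7 to 24.2 CPM in 3HH, without overlap (edgeR adjusted p = 0.0917).

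Genes of vascular signalling and matrix also gave no call. Npr2, the receptor for C-type natriuretic peptide, averaged 39.5 ± 7.25 CPM in 4HH and 56.6 ± 8.91 CPM in 3HH (SD, n = 5 and 8; edgeR adjusted p = 0.121), and the endothelin receptor Ednrb 44.5 ± 4.57 and 30.03 ± 9.73 CPM (edgeR adjusted p = 0.286). Of BMP and TGF-beta genes (median 0.113), the inhibitor Smad6 gave 0.60 ± 0.20 and the ligand Tgfb3 −0.27 ± 0.11 (SE; edgeR adjusted p = 0.222 and 0.298). Extracellular matrix genes had a median of 0.00723, with Timp1 at 0.33 ± 0.12 and Postn at −0.51 ± 0.20 (SE; edgeR adjusted p = 0.263 and 0.294). Core clock genes had a median of −0.226, with Ciart, Nr1d1 and the output gene Dbp at −0.63 ± 0.28, −0.61 ± 0.29 and −0.64 ± 0.26 (SE; edgeR adjusted p = 0.348, 0.392 and 0.307). Hours of tissue harvest are not given in the sources used here. The immediate early gene Fos was at 37.4 CPM in 4HH33 and at most 3.13 CPM in the other 12 libraries (log2 fold change 1.88 ± 0.64 SE, edgeR adjusted p = 0.235), and Nr4a3 averaged 3.80 ± 1.96 CPM in 4HH and 1.83 ± 0.576 CPM in 3HH (SD, n = 5 and 8; edgeR adjusted p = 0.174).

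Markers of other tissues varied by library. Lung epithelium genes were positive in 11 of 11 (median 0.784), beside 52.8% of all genes. Their sums were 82.1 to 245 CPM in 4HH and 78.6 to 141 CPM in 3HH. Surfactant protein C, Sftpc, was at 2.23 to 54.1 CPM in 4HH and 0.361 to 27.8 CPM in 3HH, and Lamp3 at 0.287 to 6.09 and 0 to 2.25 CPM (edgeR adjusted p = 0.495 and 0.349). Both were highest in 4HH40 and 4HH36 of batch 3, followed for Sftpc by 3HH25 of batch 3 at 27.8 CPM and 4HH38 of batch 1 at 25.0 CPM, while 3HH27, also of batch 3, had 2.40 CPM. Plasma protein genes summed to 377 CPM in 4HH38, while the lowest 4HH sum was 95.2 CPM and the 4HH median 102 CPM. Both lay inside the 3HH range of 66.8 to 116 CPM. Transferrin, Tf, was at 0.70 ± 0.19 (SE; edgeR adjusted p = 0.138). The fat marker Cfd gave 0.78 ± 0.20 (SE; edgeR adjusted p = 0.136), while the summed fat list ranged from 2631 to 3128 CPM in 4HH and 2489 to 4025 CPM in 3HH. Without 4HH36, 4HH40, 3HH25 or 4HH38, taken 1 at a time, edgeR called 1, 2, 0 and 0 genes. Other libraries left out singly also moved the count, to 2 (4HH39), 4 (3HH21), 5 (3HH28) and 102 (4HH33). With 3HH20, 3HH23, 3HH27, 3HH29 or 3HH30 left out singly edgeR called 9 to 11. Without 3HH20, 3HH27, 3HH30 and 4HH38 together, a set chosen after seeing the data for low correlation with the other libraries and not for these markers, it called 41 genes, 12 of the 13 among them. The part of the markers in the litter calls was not tested.

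**Figure D4:**
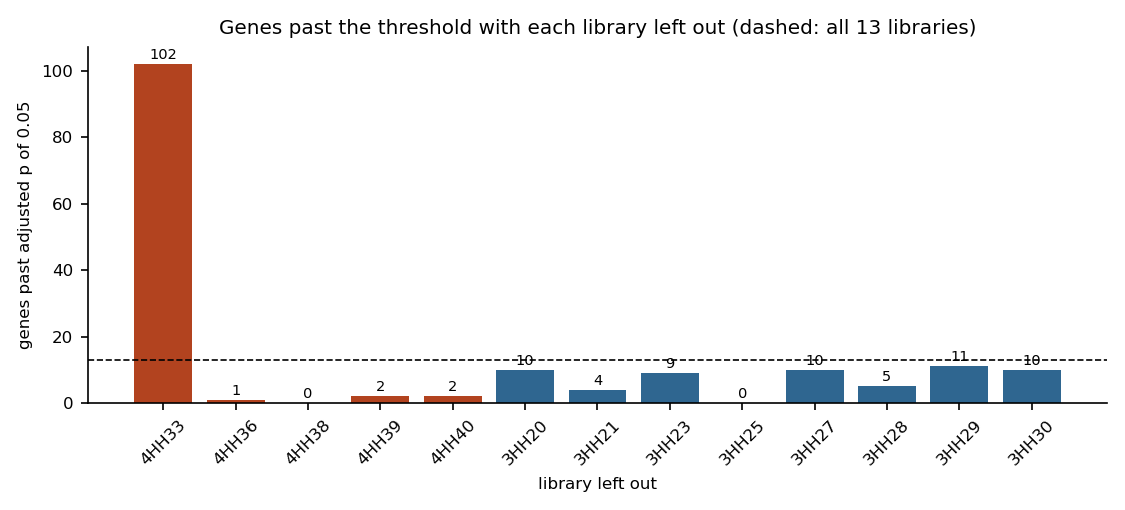
Number of genes past an adjusted p of 0.05 in edgeR (vertical axis) when the library named on the horizontal axis is left out, 4HH animals at the left and 3HH animals at the right; the dashed line is the 13 genes called from all libraries. The count falls to 0 without 4HH38 or 3HH25 and reaches 102 without 4HH33.

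Lung of the same 13 animals was compared between the litters in the same way. In lung 61 of 12202 genes passed between 4HH and 3HH (0.5%; 123 without 4HH39, a lung library that stands apart). Of the 61, 55 were higher in 4HH and 6 lower. Of the 13 ventricle genes 11 were tested in lung, 10 had the same direction and 0 passed in edgeR. How many of all genes share a direction in both tissues was not counted. RT1-CE2 came nearest, at 1.64 ± 0.38 in lung (SE; edgeR adjusted p = 0.0877), with RT1-A2 at 0.80 ± 0.22 and Nkg7 at 0.95 ± 0.29 (SE; edgeR adjusted p = 0.162 and 0.214). RT1-Ba gave 0.29 ± 0.15 and RT1-Da 0.47 ± 0.21 in lung (SE; edgeR adjusted p = 0.397 and 0.353). Without lung library 4HH39 the lung values were 0.19 for RT1-Da, 0.63 for Nkg7, 0.60 for RT1-A2, 1.43 for RT1-CE2 and 0.30 for RT1-Ba, none past the threshold. Pik3c2g gave −0.02 ± 0.32, Dnajb5 0.03 ± 0.15 and Vnn1 −0.08 ± 0.13 in lung (SE; edgeR adjusted p = 0.981, 0.927 and 0.791), though their difference between tissues did not pass (edgeR adjusted p = 0.320, 0.694 and 0.489). Of 34 RT1 genes tested in lung 0 passed in edgeR, 27 were positive and the median was 0.296. Over all genes tested in lung 50.9% were positive. Both tissues came from the same rats, so the tissues are not independent of each other.

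**Figure D5:**
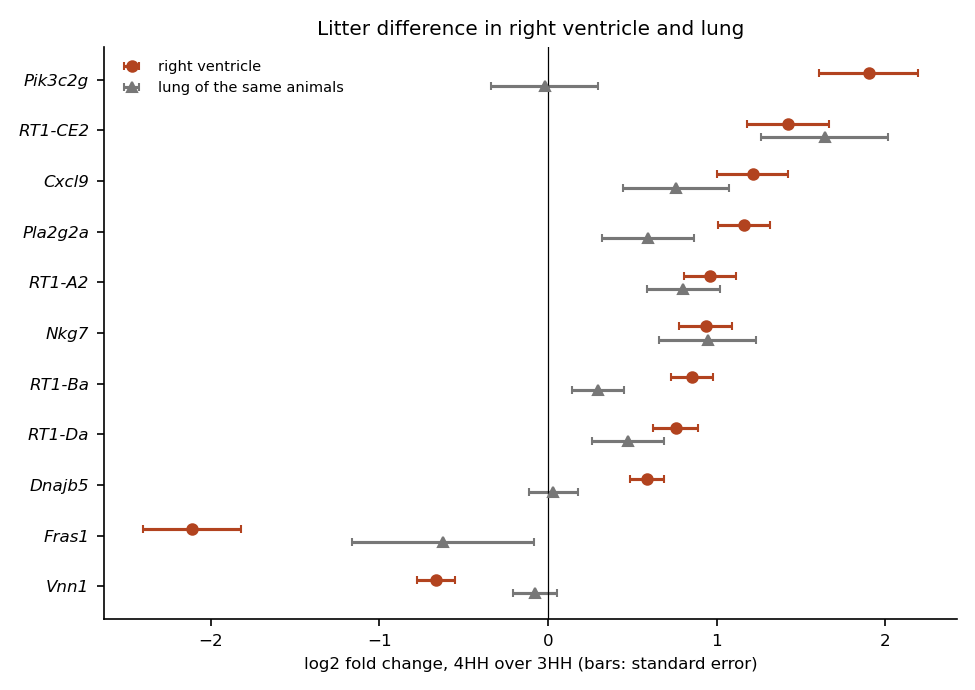
Log2 fold change, 4HH over 3HH (horizontal axis), in right ventricle (circles) and in lung of the same animals (triangles) for the 11 ventricle genes tested in lung; bars are standard errors. The 2 marks lie close for RT1-CE2, RT1-A2 and Nkg7 and apart for Pik3c2g, where ventricle gives 1.90 and lung −0.02.

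A test of the difference itself, the litter effect in ventricle minus that in lung, passed for 3 of 11695 genes (0.0257%). Rims1 gave −4.89 ± 0.82 (SE; edgeR adjusted p = 0.0228). In lung it had 51 reads over 5 libraries of 4HH and 47 over 8 of 3HH, while ventricle held 11 and 377. Slc44a4, a membrane transporter of the choline transporter-like family, lies among the RT1 loci (chromosome 20, 4593389 to 4609641) and gave 4.92 ± 0.60 (SE; edgeR adjusted p = 0.000209). Its ventricle libraries held 6 to 8 reads each in 4HH and 0 to 2 reads in 3HH, 5 of 8 at 0, too few for the ventricle fit. In lung the level was lower in 4HH, with a median of 10.9 CPM in 4HH and 22.7 CPM in 3HH on a scale set over both tissues. Ankrd6, an ankyrin repeat protein (chromosome 5, 48052619 to 48165317), gave 0.97 ± 0.17 (SE; edgeR adjusted p = 0.0352). It differed little in ventricle, at 22.2 ± 3.54 CPM in 4HH and 18.6 ± 3.04 CPM in 3HH (SD, n = 5 and 8), and was lower in 4HH lung, with a log2 fold change of −0.77 ± 0.14 (SE; edgeR adjusted p = 0.0312). With animal as a replicate block, which pairs the 2 tissues of each rat, Slc44a4 alone passed (edgeR adjusted p = 0.00898), and Rims1 and Ankrd6 were at an adjusted p of 0.135 each.

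The litter difference was also compared between males and females. In edgeR 0 of 11320 genes passed for the interaction of sex and litter, with 136 at an unadjusted p under 0.05, and limma voom also called 0. With 2 males and 3 females in 4HH, the absence of calls does not show that the litter difference was alike in both sexes. Without 4HH38, which leaves 1 male in 4HH assumed to vary like the other groups, 2 genes passed, and without 4HH33, with the same gap, 1 passed. The lowest interaction p among the 13 litter genes belonged to Fras1, with a male minus female difference of −1.58 ± 0.48 in log2 fold change (SE; edgeR adjusted p = 1). Its male 4HH animals 33 and 38 had 0.862 and 0.735 CPM, and the females 2.83 to 4.03 CPM. All 13 genes had one direction in females alone and in males alone. Both subsets are parts of the libraries by which the 13 were picked, so this is not separate support.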

How the data were processed

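Poly(A) RNA libraries (KAPA mRNA HyperPrep, HiSeq4000) are described in the labels' protocols. Per the submitters' processing notes the authors mapped reads with STAR 2.5 and counted them with featureCounts 1.5.1, and per the labels the genome was rn6. The deposited values used here are raw counts per gene, for 12199 genes in the right ventricle table, 21 of which hold a number in place of a symbol. Batch and mapping statistics, including percent of reads in intergenic and mitochondrial sequence, are as the authors deposited them.

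Here edgeR 4.0.16 in R 4.3.3 was used: filterByExpr with a minimum count of 10, TMM scaling, and a robust quasi-likelihood fit of litter and sex. The code was also run on simulated counts with the same dispersion for every gene and no outlying library. That run cannot show how the fit behaves with the outlying libraries of these data. Adjusted p values follow Benjamini-Hochberg over all genes tested, with a threshold of 0.05. The SE is the log2 fold change divided by the square root of F. Within-batch differences are of mean log2(CPM + 0.5). DESeq2 1.42.0, limma 3.58.1 and other settings were alternatives. Named genes were those called with a symbol and a mean of at least 1 CPM (up to 14 in each direction), called list members and, for lists without a call, the 2 genes of lowest p; others are said to be named after their values were seen. Members and lists were chosen with earlier results of these data known. Lung and ventricle are paired by animal in the labels (median correlation of deviations 0.406 within animals, −0.316 to 0.608, and 0.0227 between animals).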

Additional observations from a re-analysis of the deposited data

Results flagged for a closer look

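Among 144 sets of values (a named gene or a library measure in 1 litter), 16 held a library far from the rest of its litter, all of them gene sets. The rule's level of about 1 in 20 holds for normally spread, independent values. CPM values of related genes are neither, so the count is not set against chance. By library, 4HH38 held 5 of them, 3HH30 and 4HH36 3 each, 3HH20 2, and 3HH29, 4HH33 and 4HH39 1 each. In 4HH38 the highest 4HH values were 18.4 CPM for RT1-CE13, 4.29 CPM for Gzmb, 645 CPM for Lyz2, 13.5 CPM for Hemgn and 164 CPM for Tf. In 4HH36 the lowest 4HH values were 39.5 CPM for RT1-Ba, 34.5 CPM for RT1-Db1 and 0.707 CPM for Hdc. In 4HH33 Fos stood at 37.4 CPM, and in 4HH39 Nr4a3 stood at 7.22 CPM. In 3HH30 the highest 3HH values were 8.82 CPM for Cxcl9, 86.3 CPM for RT1-CE5 and 16.9 CPM for Psmb8. In 3HH20 Gzmk was highest at 2.44 CPM and Myh6 lowest at 9540 CPM, and in 3HH29 Prf1 was highest at 5.59 CPM.

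The litter difference differed between right ventricle and lung in edgeR for Slc44a4 (ventricle minus lung 4.92 on the log2 scale), Rims1 (−4.89) and Ankrd6 (0.97). Both tissues came from the same animals. With animal as a replicate block only Slc44a4 passed (edgeR adjusted p = 0.00898), and Rims1 and Ankrd6 did not (adjusted p = 0.135 each).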

How the results depend on the processing

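All 13 called genes kept their direction in every setting in which they were tested. Those settings reuse the libraries by which the genes were picked. The count of 13 moved to 6 with 4HH37 kept, 6 with no scaling, 242 in DESeq2, 80 with all ventricle libraries in one fit, 1 in females and 0 in males (397 at an unadjusted p under 0.05). In settings chosen after seeing the data it was 41 without the 4 libraries of lowest correlation and 0 within batch 2 and within batch 3 (352 and 370 at an unadjusted p under 0.05). Leaving out 1 library gave 0 to 102. The RT1 count of 4, whose alternatives were all added after seeing the data, moved to 2 with 4HH37 kept, 7 in DESeq2, and 0 with no scaling, in females, in males, in batch 2 and in batch 3, and to 0 to 5 with 1 library left out. The sex interaction gave 0 to 2 calls and the tissue interaction 1 to 3 with 1 library left out. Animal as a replicate block gave 1 call for the tissue interaction, against 3. No paired analysis was possible for the litter comparison because the litters share no animal number. With 4HH37 kept the difference in mean total count, 4HH minus 3HH, was 367442, against −342531. Of 2018 values for 68 named genes, 1792 were unchanged in direction and call, 178 lost the call, 42 gained one and 6 reversed: in batch 2 Kif20a (−0.01407), Sftpc (−0.65), Lamp3 (−0.22) and Cd3e (0.35), in batch 3 Fos (−0.04385), and with 4HH37 kept Cd3e (0.0265). The cause was not tested. Genes of low CPM rest on few reads per library, as the 0 to 5 reads of Rims1 in 4HH show.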
